A study of Mus musculus with 2 samples.

Results

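The 41 genes described here encode enzymes of the urea cycle, of amino acid breakdown and of the methionine cycle in mouse liver. They were chosen by symbol from a list of these enzymes, out of 22609 gene symbols in the counts, and are grouped by the amino acid they act on. All 41 had a row and passed the minimum of 50 reads, summed over both libraries, that made a gene measured, with sums from 510 to 255225 reads.

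The liver breaks down amino acids from food and body protein and turns their nitrogen into urea. Transaminases collect amino groups onto glutamate and aspartate, the urea cycle binds the nitrogen as urea in periportal hepatocytes, and separate chains of enzymes break down tyrosine, tryptophan, histidine, proline, serine, glycine and the branched-chain amino acids. The methionine cycle makes S-adenosylmethionine, the general methyl donor, and passes its sulfur on to cysteine.

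Liver RNA was compared between 1 library labelled Lrg1 knockout, after the gene of a secreted glycoprotein, and 1 library labelled wild type. The mice of both groups were male, of strain C57BL/6, and ate a diet with 45% of calories from fat for 16 weeks, starting at the age of 8 weeks. It is not stated whether 1 animal or a pool made up a library, nor the time of day or feeding state at collection. With 1 library per group there was no test between genotypes. Every value below compares these 2 libraries, and the 95% intervals cover counting error only. Values in parentheses after the levels are log2 ratios (knockout label over wild-type label), followed where given by their interval.

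The library labelled Lrg1 knockout held 18738397 reads in genes and the wild-type library 23311906, so that 1 read was worth 0.0519 CPM in the library labelled knockout and 0.0441 CPM in wild type (CPM are reads relative to library size, scaled by the trimmed mean of M-values, TMM). Lrg1 itself had 17572 reads, 911 CPM, in the library labelled knockout and 26958 reads, 1190.0 CPM, in the wild-type library, a log2 ratio of -0.39. The targeted gene was thus read in both libraries. The sources used here do not say which part of it was deleted, so the counts could not check the label from which each direction below is drawn. Of 10 hepatocyte markers, such as albumin, 8 lay below wild type, where 51.7% of all measured genes did. Their median log2 ratio was -0.03, and with scaling by total count instead of TMM 4 of the 10 lay below. They summed to 122259 CPM in the library labelled knockout and 138436 CPM in wild type. Of 6 kidney markers 5, and of 5 pancreatic acinar markers 4, had 0 reads in both libraries. For the sinusoidal endothelium, 8 of 9 markers lay above wild type, with a sum of 369 CPM in the library labelled knockout and 248 CPM in wild type. For macrophages, 8 of 9 lay below it, with a sum of 414 CPM in the library labelled knockout and 549 CPM in wild type. Stellate cell markers, of which 3 of 8 lay below it, summed to 397 CPM in the library labelled knockout and 402 CPM in wild type, and cholangiocyte markers to 41.1 CPM in the library labelled knockout and 42.7 CPM in wild type. In bulk liver, fewer cells of a type and less RNA per cell cannot be told apart, and the part of these cells in the results below was not tested.

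Amino acid catabolism genes differed by less than 2-fold between the libraries, and most had a slightly lower level under the knockout label. None of the 41 members was 2-fold apart: 0 lay 2-fold or more above wild type, where 1.7% of the 11411 measured genes did, and 0 lay 2-fold or more below, where 2.5% did. In all, 27 members (65.9%) had a log2 ratio below 0, against 51.7% of measured genes, and 14 were above 0. The median log2 ratio of the members was -0.14, against -0.01 for all measured genes. The interval lay wholly below no difference for 26 members (63.4%), and for 26.6% of all measured genes. It lay wholly above for 13 members (31.7%), and for 22.0% of all measured genes. Members with many reads have narrow intervals, and such counts speak of these libraries and not of genotypes. Among the 7190 genes with at least 500 reads, which every member had, 54.5% were lower and the median was -0.03, with the interval wholly below for 33.3% and wholly above for 24.5%. For 9 members the exons overlap, or much of the sequence is shared with, another gene, and all 9 lay below 0. Without them, a choice made after seeing the data, 56.2% of 32 members were lower, near the 54.5% of genes with at least 500 reads. Scaling by total count moved all genes up by 0.08 on the log2 scale. Then 63.4% of members and 40.3% of measured genes were lower, and the median of the members stayed 0.13 below that of all genes.

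At a threshold of 1.5-fold, 5 members were lower in the library labelled knockout, 12.2% of them, against 6.91% of measured genes and 5.13% of those with at least 500 reads. They were Sds, Prodh, Gpt2, Bhmt and Gpt. With scaling by total count this number was 3, against 5.51% of measured genes, because Gpt and Bhmt then lay inside the threshold. At least 1.5-fold higher were 2 members, Bckdhb and Tat, which is 4.88% of members, against 5.85% of measured genes and 2.68% of those with at least 500 reads. The extremes were Sds at -0.88 and Bckdhb at 0.76, a span that held 93.3% of all measured genes.

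**Figure D1:**
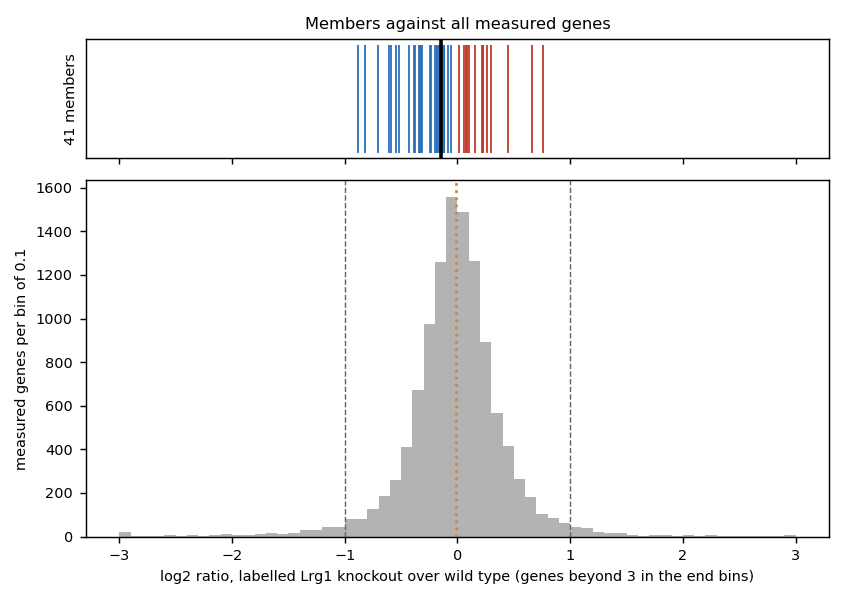
Log2 ratios of the library labelled Lrg1 knockout to wild type. Each line in the upper panel is 1 of the 41 members (blue below 0, red above 0, black their median of -0.14), and the bars below count the 11411 measured genes per bin of 0.1 with their median (dotted) and the 2-fold limits (dashed). All members lie inside the 2-fold limits, with more of them to the left of 0.

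Promoter sequences are shown for the members with the lowest and highest log2 ratios that have an entry in the RefSeq table (build GRCm38.p6), a choice made after the values were seen. Each runs 5′ to 3′ from 250 bases before to 50 after the start of the gene. Prodh (-0.82) and Gpt2 (-0.70) were lower in the library labelled knockout, and Tat (0.66) and Bckdhb (0.76) were higher. Sds, the lowest of all, has no entry. Capitals mark matches to any of 7 short motifs, which were searched on both strands.

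Prodh, chr16:18089141-18089440, minus strand: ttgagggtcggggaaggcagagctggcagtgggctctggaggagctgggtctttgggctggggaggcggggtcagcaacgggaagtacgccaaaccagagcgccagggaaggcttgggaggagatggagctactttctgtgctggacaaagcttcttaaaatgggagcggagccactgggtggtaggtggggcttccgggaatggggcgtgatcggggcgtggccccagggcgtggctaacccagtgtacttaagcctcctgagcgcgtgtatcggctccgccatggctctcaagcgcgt

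Gpt2, chr8:85492326-85492625, plus strand: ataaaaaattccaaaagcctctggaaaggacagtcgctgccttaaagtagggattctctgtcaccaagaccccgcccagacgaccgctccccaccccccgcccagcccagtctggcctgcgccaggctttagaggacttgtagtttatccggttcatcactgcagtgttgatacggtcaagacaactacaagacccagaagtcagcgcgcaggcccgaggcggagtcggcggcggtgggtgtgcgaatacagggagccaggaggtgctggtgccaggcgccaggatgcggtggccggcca

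Tat, chr8:109990186-109990485, plus strand: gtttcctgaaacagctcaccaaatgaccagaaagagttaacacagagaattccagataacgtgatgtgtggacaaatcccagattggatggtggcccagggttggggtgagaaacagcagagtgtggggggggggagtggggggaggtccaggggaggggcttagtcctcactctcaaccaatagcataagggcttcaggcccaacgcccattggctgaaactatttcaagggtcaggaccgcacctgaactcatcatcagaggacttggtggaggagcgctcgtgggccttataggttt

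Bckdhb, chr9:83924887-83925186, plus strand: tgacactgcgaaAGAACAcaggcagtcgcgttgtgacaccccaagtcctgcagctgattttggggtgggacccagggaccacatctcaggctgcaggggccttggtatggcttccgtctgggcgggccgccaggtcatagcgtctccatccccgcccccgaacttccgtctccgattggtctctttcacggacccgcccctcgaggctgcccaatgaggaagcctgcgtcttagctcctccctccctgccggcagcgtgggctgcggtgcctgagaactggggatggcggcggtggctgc

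Of these 4 promoters only that of Bckdhb held a match, to AGAACA, which is only a part of the full glucocorticoid receptor motif. Over the 30 members with an entry, AGAACA was found in 4 (13.3%; 19.0% of 27025 genes in the table). TGACG, a part of the full cAMP response motif, was found in 3 (10%, against 21.0% of genes). The C/EBP motif TTGCNNAA was found in 3 (10%, against 10.8% of genes). The TATA box TATAAA was found in 4 (13.3%; 14.2% of genes) and the E-box CACGTG in 2 (6.67%; 7.24% of genes). The D-box TTANGTAA and the forkhead motif GTAAACA were found in 0, where 2.34% and 3.55% of genes held them. These are letter matches in a window of 300 bases, and 0 matches says only that these letters do not occur there.

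Most urea cycle genes had a lower level under the knockout label. Of 6 members, 5 had an interval wholly below no difference, where 26.6% of measured genes and 33.3% of those with at least 500 reads did, and the median log2 ratio was -0.30. Cps1, the mitochondrial enzyme that commits ammonia to the cycle, had 28791 reads in the library labelled knockout and 49325 in the wild-type library, which is 1493 CPM in the library labelled knockout and 2177 CPM in wild type (log2 ratio -0.54, interval -0.57 to -0.52). Nags, whose exons overlap Gm11586 on the other strand, makes the activator that Cps1 needs and had 65.8 CPM in the library labelled knockout and 77.2 CPM in wild type (-0.23). Otc, which forms citrulline in mitochondria, was the exception, with 451 CPM in the library labelled knockout and 386 CPM in wild type (0.22, 0.18 to 0.27). In the cytosol, Ass1, which adds aspartate nitrogen, had 264 CPM in the library labelled knockout and 342 CPM in wild type (-0.37), and Asl, which then releases arginine, 329.7 CPM in the library labelled knockout and 358 CPM in wild type (-0.12). Arg1, which frees urea from arginine, had 971 CPM in the library labelled knockout and 1266 CPM in wild type (-0.38). Of the 50-base windows of the Ass1 transcript, 55.3% also occur in the copy Gm5424, so reads from them are not unique and the level of Ass1 is uncertain. The summed share of reads in genes held by the 6 members was 0.368% in the library labelled knockout and 0.448% in wild type.

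Of genes that work beside the cycle, 1 was above 0 and 4 were below, where 51.7% of measured genes were below. Slc25a15, which carries ornithine into mitochondria, was the highest of 5 measured ones, with 423 CPM in the library labelled knockout and 391 CPM in wild type (0.11). Got2, the mitochondrial aspartate aminotransferase, was the lowest, with 179 CPM in the library labelled knockout and 235 CPM in wild type (-0.39). The other 3, Slc25a13, Glud1 and Agmat, lay between -0.25 and -0.13. Slc25a2 and Arg2, with 11 and 12 reads in all, were not measured.

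Transaminases and glutaminase went both ways. Both alanine aminotransferases, which move the amino group of alanine to glutamate, were lower in the library labelled knockout. Gpt, the cytosolic form, had 218 CPM in the library labelled knockout and 329 CPM in wild type (-0.59, -0.65 to -0.54). Gpt2, the mitochondrial form, had 437 CPM in the library labelled knockout and 712 CPM in wild type (-0.70, -0.74 to -0.67). The log2 ratios of this pair differed by 0.11 (Gpt minus Gpt2; 0.04 to 0.18). Got1, the cytosolic aspartate aminotransferase, was higher, with 246 CPM in the library labelled knockout and 181 CPM in wild type (0.45, 0.39 to 0.51). Its mitochondrial partner Got2 was lower (above), and the log2 ratios of Got1 and Got2 differed by 0.84 (Got1 minus Got2; 0.75 to 0.92). Gls2, the liver glutaminase, had 221 CPM in the library labelled knockout and 244 CPM in wild type (-0.14), and its exons overlap those of Spryd4 on the other strand. Glul, which makes glutamine in pericentral hepatocytes, had 1053 CPM in the library labelled knockout and 1228 CPM in wild type (-0.22).

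Among other genes of glutamine and asparagine metabolism the extremes were Asns and Asrgl1. Asns, the asparagine synthetase, stood far above the others at 2.55, on 67 reads in the library labelled knockout and 13 in wild type. Asrgl1, an asparaginase, was at -0.43.

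The enzymes that turn serine and proline into fuel included the lowest members. Sds, serine dehydratase, which makes pyruvate from serine in periportal hepatocytes, had 1762 reads in the library labelled knockout and 3817 in the wild-type library, or 91.4 CPM in the library labelled knockout and 168 CPM in wild type (-0.88, -0.97 to -0.80). Its exons overlap Gm15690 and Plbd2 on the other strand, and no source used here gives the strand setting of the counting. Sdsl, its paralog, was also at a lower level per length (given further on), with 10.7 CPM in the library labelled knockout and 13.4 CPM in wild type (-0.32, -0.58 to -0.06). The log2 ratios of Sds and Sdsl differed by -0.57 (Sds minus Sdsl; -0.83 to -0.30). Of 5 measured genes of serine synthesis and its exchange with glycine or D-serine, 5 were below 0, where 51.7% of measured genes were. With scaling by total count 4 of them were. Their values lay between -0.31 for Shmt2 and -0.06 for Srr, but for Srr, Psat1 and Psph the interval included no difference.

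Prodh and Prodh2 stood on opposite sides of no difference. Prodh, proline dehydrogenase, had 2625 reads in the library labelled knockout and 5455 in the wild-type library, or 136 CPM in the library labelled knockout and 241 CPM in wild type (-0.82, -0.89 to -0.76). Prodh2, which acts on hydroxyproline from collagen, had 214 CPM in the library labelled knockout and 184 CPM in wild type (0.21, 0.15 to 0.28). The log2 ratios of Prodh and Prodh2 differed by -1.04 (Prodh minus Prodh2; -1.13 to -0.94), the widest gap of the 10 pairs of related genes compared, a set chosen with the values of the members known. Prodh had 0.637 reads per read of Prodh2 in the library labelled knockout and 1.31 in wild type. Aldh4a1, which serves both routes, had 442 CPM in the library labelled knockout and 507 CPM in wild type (-0.20), and its exons overlap Gm21969 on the same strand. Oat, ornithine aminotransferase of pericentral hepatocytes, had 1693 CPM in the library labelled knockout and 2136 CPM in wild type (-0.34). Aldh18a1, of proline synthesis, was at 0.27 on 67 reads in all.

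**Figure D2:**
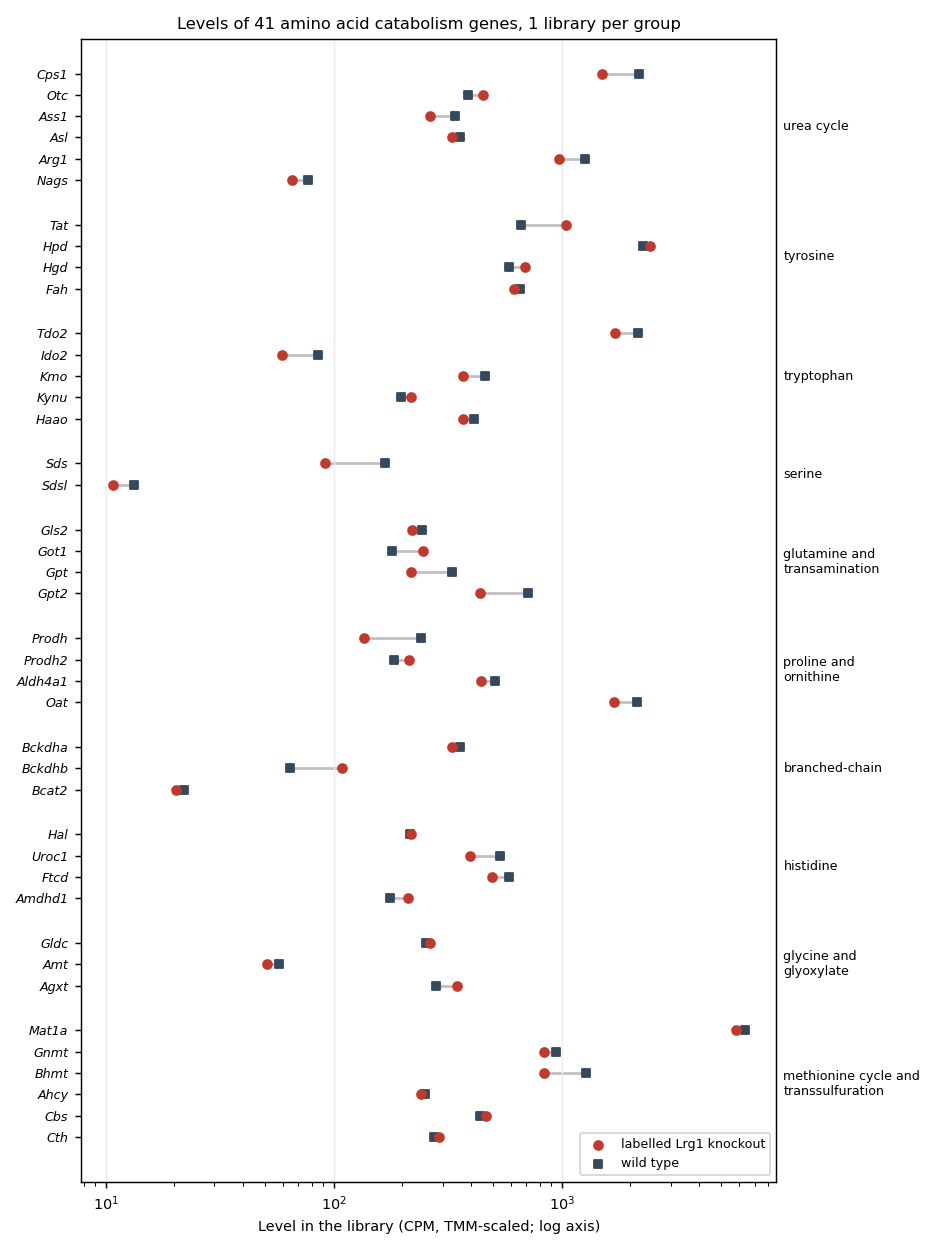
Level of each of the 41 members in CPM (log axis) in the library labelled Lrg1 knockout (red circles) and the wild-type library (dark squares), 1 library per group, grouped by pathway. Levels run from about 10.7 CPM for Sdsl to 5778 CPM for Mat1a in the library labelled knockout, and the gaps are widest for Sds, Prodh and Bckdhb.

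Tyrosine breakdown had most of its members above wild type. Of 4 members 3 were above 0 and 1 was below, where 51.7% of measured genes were below, with a median of 0.16. Tat, tyrosine aminotransferase, the entry step and a known target of glucocorticoids and glucagon, had 20171 reads in the library labelled knockout and 14993 in the wild-type library, or 1046 CPM in the library labelled knockout and 662 CPM in wild type (0.66, 0.63 to 0.69). Hpd, the dioxygenase that follows, had 2430.0 CPM in the library labelled knockout and 2269.6 CPM in wild type (0.10). Hgd, which opens the ring of homogentisate, had 690.3 CPM in the library labelled knockout and 589 CPM in wild type (0.23). Fah, the last enzyme, was slightly lower, with 619 CPM in the library labelled knockout and 658 CPM in wild type (-0.09). The 4 members held 0.493% of reads in genes in the library labelled knockout and 0.406% in wild type. Of 6 other genes of the pathway, Gch1, which starts the synthesis of tetrahydrobiopterin, was the highest (0.04), and 5 had an interval wholly below no difference, as 26.6% of measured genes did.

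Tryptophan breakdown had most of its members below wild type. Of 5 members 4 were below 0, where 51.7% of measured genes were, with a median of -0.32. Tdo2, the main liver enzyme that opens the indole ring, had 1706 CPM in the library labelled knockout and 2158 CPM in wild type (-0.34, -0.36 to -0.32). Ido2, which catalyses the same step, had 59.5 CPM in the library labelled knockout and 85.5 CPM in wild type (-0.52). Ido1 had 0 reads in both libraries, which allows up to 0.156 CPM in the library labelled knockout and 0.132 CPM in wild type (3 counts). Kmo, which hydroxylates kynurenine, had 369 CPM in the library labelled knockout and 461 CPM in wild type (-0.32). Kynu, which cleaves kynurenines, was higher at 219 CPM in the library labelled knockout and 197 CPM in wild type (0.15). Haao, which makes the precursor of quinolinate, had 367 CPM in the library labelled knockout and 412 CPM in wild type (-0.16). Qprt, which leads quinolinate to NAD, was the lowest of 6 other measured genes (-0.43), and Aadat, a kynurenine aminotransferase, the highest (0.16).

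**Figure D3:**
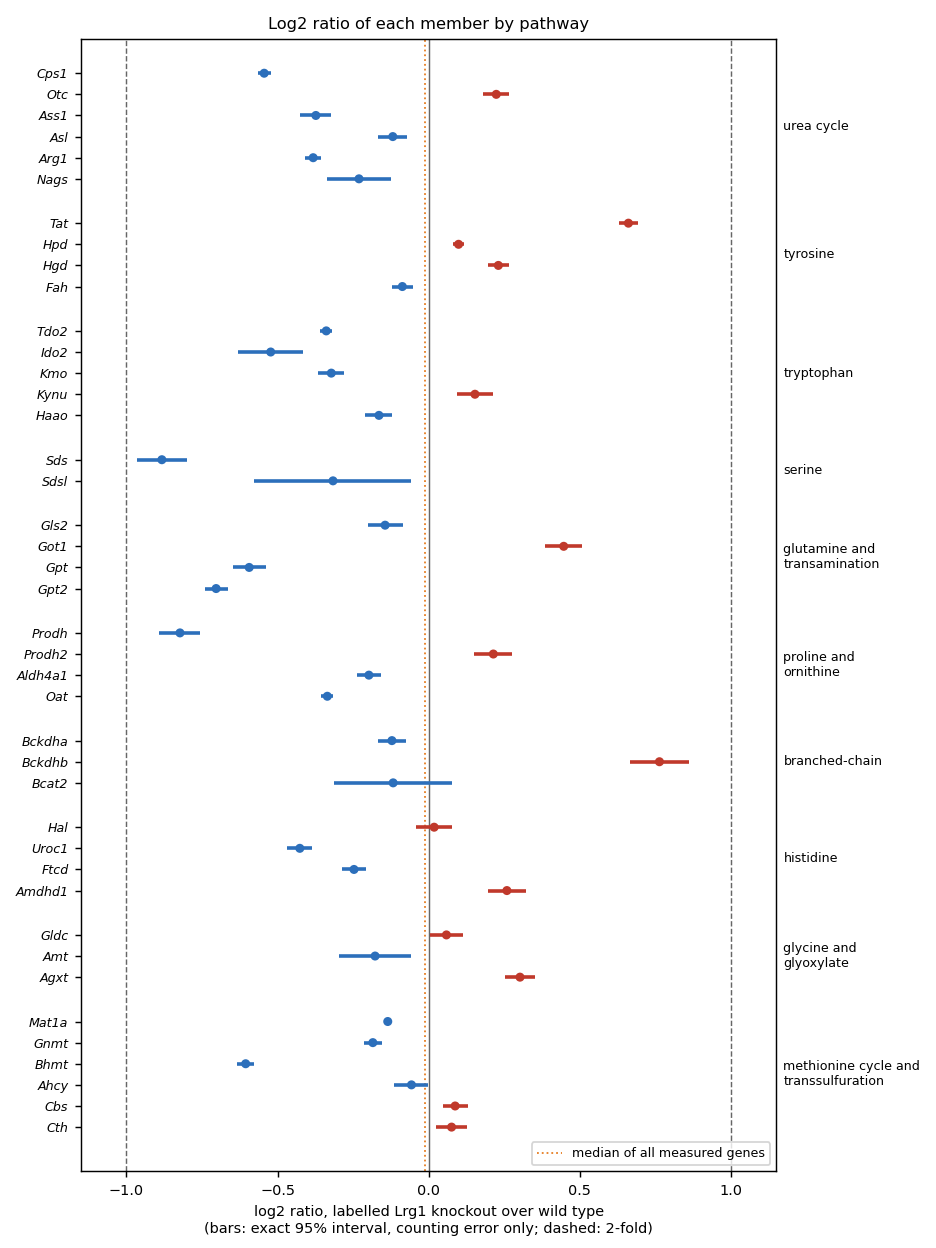
Log2 ratio of the library labelled Lrg1 knockout to wild type for each member (blue below 0, red above 0), with exact 95% intervals that cover counting error only, the 2-fold limits (dashed) and the median of all measured genes (dotted). In the urea cycle all but Otc, and in tryptophan breakdown all but Kynu, lie below 0, while Tat and Bckdhb lie farthest above it.

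The subunits of the branched-chain ketoacid dehydrogenase differed in direction. Bckdhb, the beta subunit of its decarboxylase, was the highest member, with 2105 reads in the library labelled knockout and 1457 in the wild-type library, or 109 CPM in the library labelled knockout and 64.3 CPM in wild type (0.76, 0.67 to 0.86). Bckdha, the alpha subunit of the same decarboxylase, had 329 CPM in the library labelled knockout and 358 CPM in wild type (-0.12, -0.17 to -0.07). The log2 ratios of Bckdhb and Bckdha differed by 0.88 (Bckdhb minus Bckdha; 0.78 to 0.99). Exons of Bckdha overlap B3gnt8 on the other strand. Bcat2, the transaminase that acts before this complex and is known to be scarce in hepatocytes, had 20.4 CPM in the library labelled knockout and 22.1 CPM in wild type (-0.12), with an interval that includes no difference and exons that overlap 0610005C13Rik on the other strand. Among 18 other measured genes of this route Ppm1k, the phosphatase that activates the complex, was the highest, with 152 CPM in the library labelled knockout and 100.4 CPM in wild type (0.60). Its kinase Bckdk was at 0.24, the other core subunits Dbt and Dld at -0.01 and -0.18, and Auh, of leucine breakdown, was the lowest (-0.35).

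Of the 4 members of histidine breakdown 2 were above 0 and 2 below, where 51.7% of measured genes were below. Hal, histidase, was nearly equal, with 218 CPM in the library labelled knockout and 215 CPM in wild type (0.02, -0.04 to 0.08). Uroc1, urocanase, had 397 CPM in the library labelled knockout and 533 CPM in wild type (-0.43). Amdhd1, the next enzyme, had 211 CPM in the library labelled knockout and 177 CPM in wild type (0.26). Ftcd, which hands the last carbon unit to folate, had 492 CPM in the library labelled knockout and 585 CPM in wild type (-0.25). Of genes that make and clear histamine, Hdc was at -0.69 on 43 reads in the library labelled knockout and 82 in wild type, and Hnmt at -0.60.

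The 3 glycine and glyoxylate members showed small differences. Gldc, the decarboxylase of the glycine cleavage system, had 265 CPM in the library labelled knockout and 254 CPM in wild type (0.06), and Amt, its aminomethyltransferase, 51.1 CPM in the library labelled knockout and 57.8 CPM in wild type (-0.18). Agxt, which turns peroxisomal glyoxylate into glycine, was higher, with 348 CPM in the library labelled knockout and 282 CPM in wild type (0.30, 0.25 to 0.35). The other genes of this list spread more widely, from Gamt at -0.67 to Gatm at 1.03 (both described further on). Of these 8 genes 7 were below 0, where 51.7% of measured genes were. With scaling by total count 5 of the 8 were.

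In the methionine cycle and the route to cysteine, 4 of 6 members were below 0, where 51.7% of measured genes were. With scaling by total count 3 of the 6 were. Bhmt lay farthest from 0. Mat1a, which makes S-adenosylmethionine, was the most abundant member and the only one among the 20 most abundant genes, with 5778 CPM in the library labelled knockout and 6348 CPM in wild type (-0.14). Gnmt, which uses up surplus S-adenosylmethionine, had 833 CPM in the library labelled knockout and 947 CPM in wild type (-0.18), and Ahcy, which hydrolyses the product, 242 CPM in the library labelled knockout and 251 CPM in wild type (-0.06). The direction of Ahcy turned to 0.03 with scaling by total count. Bhmt, which remethylates homocysteine with betaine, had 838 CPM in the library labelled knockout and 1276 CPM in wild type (-0.61, -0.63 to -0.58). Its neighbour and paralog Bhmt2 was at -0.42. Of the 50-base windows of the Bhmt transcript 59.9%, and of the Ahcy transcript 77.0%, also occur in other genes or pseudogenes, so both levels are uncertain, and exons of Bhmt also overlap Gm15622 on the other strand. Cbs and Cth, which lead homocysteine to cysteine, were slightly higher. Cbs had 466 CPM in the library labelled knockout and 439 CPM in wild type (0.09), and Cth had 289 CPM in the library labelled knockout and 275 CPM in wild type (0.08). Mtr, the methionine synthase that remethylates homocysteine with a folate, was at 0.01, and its reductase Mtrr, the lowest of the 12 other genes, at -0.45.

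The order of the members per length was the same at its top and bottom in both libraries and differed between. In CPM per kilobase of annotated exon, Mat1a, Hpd, Oat and Gnmt led both libraries in this order, at 1666, 1142, 717 and 691 in the library labelled knockout, against 1830, 1067, 905 and 785 in wild type. Tat was 7th of 41 in the library labelled knockout and 9th in wild type. Sds was 32nd in the library labelled knockout and 20th in wild type. Bcat2 (5.23 in the library labelled knockout and 5.67 in wild type) and Sdsl (7.17 in the library labelled knockout and 8.94 in wild type) were lowest. The length joins all annotated exons of a gene and can exceed that of its transcript, so the order between genes depends on the annotation. All members together held 2.64% of reads in genes in the library labelled knockout (exact interval 2.63 to 2.65%) and 2.81% in wild type (2.80 to 2.81%).

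Most of the other genes of these pathways were below 0 as well. Of 79 listed, 73 were measured, of which 51 (69.9%) were below 0, against 51.7% of all measured genes, with a median of -0.12, against -0.01. A total of 3, among them Asns and Gatm, lay 2-fold or more above wild type, as 1.7% of measured genes did, and 0 lay as far below it, as 2.5% did. With scaling by total count 58.9% of the 73 and 40.3% of measured genes were below 0.

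Regulators known to act on these genes or on the enzymes they encode lay on both sides of 0. Of 19, 12 (63.2%) were below 0, where 51.7% of measured genes and 54.5% of those with at least 500 reads were, and the median was -0.29. A total of 0 were 2-fold apart, and at 1.5-fold 2 were higher and 3 lower, where 5.85% and 6.91% of measured genes were. Cebpb, a leucine zipper factor of the liver's fasting and acute responses, had 859 reads in the library labelled knockout and 1793 in wild type (-0.83). Its relatives Cebpd and Cebpa were at -0.71 and -0.30. Hnf4a, a nuclear receptor of hepatocyte identity, was at -0.51. Klf15, a driver of amino acid breakdown in fasting, was at -0.50, Foxo3 at -0.61, Foxo1 at -0.37, Creb3l3 at -0.31 and Ppara at -0.22. The mitochondrial deacylases Sirt5 and Sirt3 were at -0.52 and -0.13. Higher were the forkhead factors Foxa1 (0.75), Foxa2 (0.18) and Foxa3 (0.16), the amino acid stress factor Atf4 (0.61), which had 2605 reads in the library labelled knockout and 2001 in wild type, and the glucocorticoid receptor Nr3c1 (0.20). The glucagon receptor Gcgr (0.03) and the coactivator Ppargc1a (0.05) had intervals that include no difference.

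**Figure D4:**
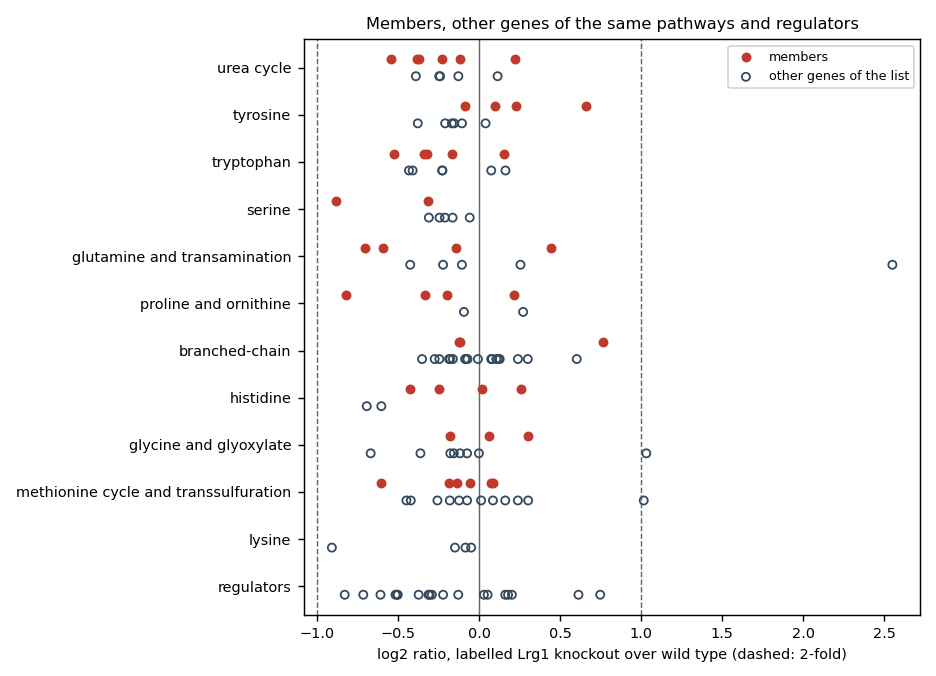
Log2 ratio of the library labelled Lrg1 knockout to wild type for members (filled red) and the other measured genes of each list (open), with the 2-fold limits dashed. The 3 points beyond 2-fold, among them Asns and Gatm, are not members. Left of 0 lie 65.9% of members, 69.9% of the other pathway genes and 63.2% of regulators, against 51.7% of all measured genes.

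Zonation markers gave no common direction beside these values. Of 5 periportal markers that are not members, 3 lay above wild type and 2 below, with Cdh1 at 1.38 and Apoa4 at -0.58. Of 9 pericentral markers that are not members, 3 lay above and 6 below, with Lgr5 at 0.47 and Rhbg at -1.14.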

How the data were processed

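Liver RNA libraries were made by poly(A) selection with a stranded kit from about 500 ng of total RNA and read as single ends of 50 bases, per the labels' protocols. Per the submitters' processing notes, bcl2fastq, TopHat2, HTSeq and the build mm9 were used; the sources used here give no versions, strand setting or annotation. Raw counts for each symbol, as the authors deposited them, were used without 5 lines that name no gene. Of reads with 1 alignment, 14.44% in the library labelled knockout and 14.01% in wild type were assigned to no annotated feature in the counting.

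Counts were scaled by TMM in edgeR 4.0.16 (R 4.3.3), and each log2 ratio, knockout label over wild type, had 0.5 as prior count. Genes were measured from a sum of 50 reads. Ratios have exact Clopper-Pearson intervals at 95% and differences between log2 ratios normal intervals from the 4 counts. The reads carry no molecular identifiers and so need not be independent molecules, and intervals may be too narrow. No p-value is given. Exon lengths, overlaps and shared 50-base windows come from GENCODE M21 on GRCm38, no coordinates of which are given with the counts since the builds differ. The steps were checked on simulated data with known folds, drawn with counting error only. Such data hold no variation between animals and no duplicate reads, so the check does not cover these.

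The members and lists were chosen with earlier results of these data known. Named genes were the 41 members, Lrg1, the regulators, and of other pathway genes those 2-fold apart and the highest and lowest of each pathway; further genes named were chosen after their values were seen. Since 0 members were 2-fold apart, promoters were chosen by rank instead, and protein sequences were not used here. Some genes that the rule names are not reported here. Alternatives were total count, DESeq2 1.42.0 size factors, thinning to equal depth, total count leaving out the top 20 genes, a prior count of 2, other minimum sums and folds, means and a shorter promoter window. Other steps ran in Python 3.11.15 (pandas 2.3.3, numpy 2.4.6, scipy 1.17.1), with plots from matplotlib 3.10.9.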

Additional observations from a re-analysis of the deposited data

Results flagged for a closer look

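Reads aligned to more than 1 place took 58.0% of the counted lines under the knockout label, against 50.3% under the wild-type label. These lines enter none of the comparisons and lay above the level in the wild-type library. Which genes they came from is not analysed here; among the members, Ahcy, Bhmt and Ass1 have most of their 50-base windows in other genes as well.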

How the results depend on the processing

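No paired analysis was possible because each group has 1 library, and for the same reason no replicate could be left out. The number of members 2-fold apart was 0 in both directions under every scaling, thinning, prior and minimum tried and at 3-fold, and 2 higher and 5 lower at 1.5-fold (3 lower at 1.5-fold with total count). The median of the members was -0.14 and became -0.0617 with total count, whose construction moves every gene by 0.08. It lay between 0.11 and 0.14 below the centre of all genes under all 11 alternatives for lists. One of these, chosen after seeing the data, left out 9 members. Their exons overlap another gene or at least 5% of their windows are shared. All 9 lay below 0. Without them the median was -0.13, with 56.2% of 32 members lower, where 51.7% of measured genes were. Of genes with at least 500 reads 54.5% were lower. Of the 32, 5 share up to 1.87% of windows. DESeq2 size factors, the larger prior and thinning left all 41 log2 ratios inside their intervals. Total count moved 34 and total count without the 20 most abundant genes 27 beyond their intervals without a change of sign, and Ahcy turned to 0.0255 and 0.002. The branched-chain centre was 0.17 as a mean. Without the member farthest from 0, the histidine median turned to 0.0177 and the glycine and glyoxylate median to -0.0596, as fewer members remained. The summed share in the library labelled knockout was 0.941 of that in wild type, 0.919 without the 20 most abundant genes and 0.934 without Mat1a. AGAACA was found in 3.33% of member promoters and 9.63% of all promoters in the shorter window, which holds fewer bases. Depth limits Bcat2 and Sdsl, the members with the widest intervals.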

Other observations

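Creatine synthesis, which uses arginine and glycine and takes a methyl group from S-adenosylmethionine, had its enzymes on opposite sides. Gatm, which makes guanidinoacetate and is mainly a kidney enzyme, had 211 reads in the library labelled knockout and 121 in wild type, a log2 ratio of 1.03. Gamt, which methylates that product in liver, had 1475 reads in the library labelled knockout and 2755 in wild type (-0.67).

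Lysine breakdown genes were all 4 below 0 in the library labelled knockout, where 51.7% of measured genes were. With scaling by total count 3 of the 4 were, and their median was -0.03. Aass, the entry enzyme, was nearest to no difference at -0.05, with Gcdh at -0.08 and Aldh7a1 at -0.15. Dhtkd1, a subunit of the oxoadipate dehydrogenase complex, had 711 reads in the library labelled knockout and 1568 in wild type (-0.91), lower than any member.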
